A study of Homo sapiens with 4 samples.

Results

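The early growth response factors EGR1, EGR2, EGR3 and EGR4, the corepressors NAB1 and NAB2 that bind them, and SRF (serum response factor), a known driver of EGR transcription, were examined in ES2 cells treated with vehicle or liquiritigenin (Liq). These 7 genes were taken by symbol from the 23228 genes of the count tables. They were chosen by their biology with the Liq-against-vehicle differences of these same samples already known, so those differences are given here as a description, with no p-value. ES2, an ovarian cancer line of human origin, was the only cell line sequenced, and Liq is a plant flavanone used as an agonist of estrogen receptor β (ERβ). Cells of all 4 samples were kept in phenol red–free RPMI-1640 with dextran-charcoal treated serum, a medium low in steroid hormones. Total RNA was taken after 24 h with vehicle or with 100 μM Liq (the dose stated in the methods of the study), with 2 samples per group. The labels do not say whether the 2 samples of a group were separate cultures, so the replicate error may be technical in part. In bulk RNA, fewer expressing cells and less RNA per cell cannot be told apart.

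EGR factors are zinc finger transcription factors that bind GC-rich sites, and they are immediate-early genes, transcribed within minutes of a growth factor signal without new protein synthesis. The signal runs from receptors through RAS, RAF, MEK and ERK to the ETS-type cofactors ELK1, ELK3 and ELK4, which sit with SRF on CArG boxes of the EGR promoters. NAB1 and NAB2 bind EGR1, EGR2 and EGR3 and turn them from activators into repressors by recruiting the CHD4-containing NuRD complex. NAB2 is itself a known EGR target, which makes it a feedback brake.

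Reads counted on genes numbered 34573053 to 48933893 per sample, and a count of 3 corresponded to 0.0598 to 0.0844 CPM (gene counts relative to the TMM-scaled library total). Keratin genes KRT7, KRT8 and KRT18 were expressed at 23.3 to 378 CPM in every sample and the mesenchymal marker VIM at 5870 to 7600 CPM. The Müllerian marker PAX8 was low and lower in Liq, with 49 and 46 counts in vehicle and 12 and 29 in Liq, and the part of this in the results was not tested. EPCAM and KRT19 had 1 to 3 counts per sample, and MUC16 at most 1, so several defining markers of ovarian epithelium were at or near 0. ESR2, which encodes ERβ, had 4 to 14 counts per sample, and ESR1 had 17 to 34. Both leukocyte markers, PTPRC and CD3E, had at most 1 count per sample. Of the fibroblast markers, COL1A1 was at 1160 to 1430 CPM while COL3A1 and DCN had at most 1 count, and of the endothelial markers, CDH5 was at 44.6 to 52.9 CPM while PECAM1 was at or below 0.243 CPM. Of 13546 genes that passed the filter on low counts, 6.45% were called changed, meaning a difference of 1.5-fold or more and an adjusted p-value under 0.05 by edgeR's quasi-likelihood test, 2.16% as lower in Liq and 4.29% as higher. Upward calls made up 66.5% of them, against 47.3% with loess offsets along the expression level and 77.1% with library size alone.

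All 3 EGR factors that could be measured were much lower in Liq, and the corepressors and SRF differed far less. EGR1, EGR2 and EGR3 were 3.51 to 5.67 times lower, whereas NAB1, NAB2 and SRF were 1.15 to 1.36 times lower. Of the 7 members, 6 passed the filter, 3 met the call rule as lower and 0 as higher, beside the 2.16% of all tested genes called lower. With no fold threshold, 4 of the 6 had an adjusted p-value under 0.05, NAB2 being the added one, against 24% of all tested genes. In each of the 6, both Liq samples lay below both vehicle samples on the TMM scale, an arrangement that 30.2% of all tested genes shared. Nothing is read from these counts, because the same contrast was in view when the genes were chosen.

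**Figure D1:**
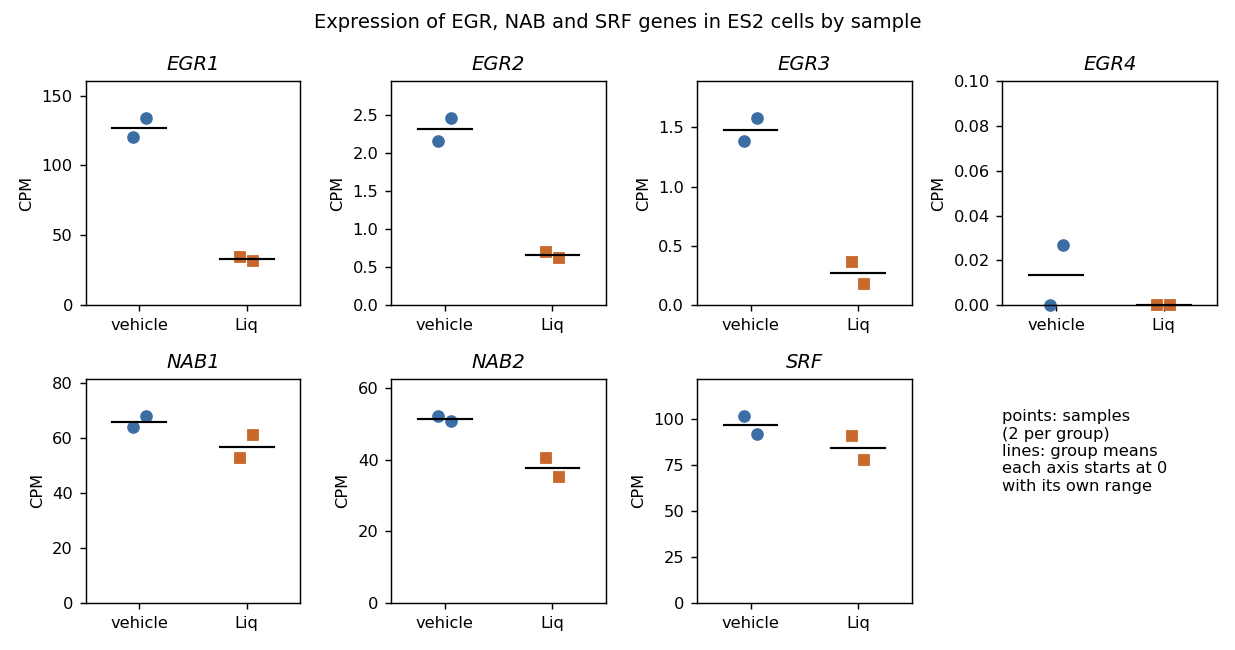
Expression in CPM (TMM scale, linear axes from 0) of each of the 7 genes in the 2 vehicle (circles) and 2 Liq (squares) samples, with lines at the group means. The 2 Liq points of EGR1, at 34.3 and 31.4 CPM, lie far below its vehicle points at 120 and 134 CPM, while the groups of NAB1 and SRF lie close together.

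EGR1, the most studied member and a direct target of ERK signaling, was by far the most abundant EGR factor. Vehicle replicates gave 4952 and 5006 counts and Liq replicates gave 1221 and 1575, which is 120.4 and 133.7 CPM against 34.34 and 31.38 CPM. The gap between groups was many times the distance between replicates. Mean expression was 127.1 ± 9.4 CPM (SD, n = 2) in vehicle and 32.9 ± 2.1 CPM with Liq, and the fitted log2 fold change was -1.95 (SE 0.08), a change of -74.2%. In the order of fold changes over all tested genes, 0.185% lay below EGR1. The gene lies on chromosome 5 from 137801168 to 137804992 on the plus strand (GRCh37), with 2 exons, 3137 exonic bases and a coding sequence of 1629 bases, and no exon of another annotated gene overlaps it.

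The EGR1 promoter is shown because it carries CArG boxes, the elements that SRF binds. Sequence more than 250 bases before the start site was not searched, so boxes further upstream are not covered. The 250 bases before the start site, chr5:137800918-137801167 on the plus strand, are printed 5′ to 3′ from the RefSeq promoter table (built on GRCh38.p14 and placed on GRCh37 by exact match), with CArG boxes in capitals.

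EGR1 promoter: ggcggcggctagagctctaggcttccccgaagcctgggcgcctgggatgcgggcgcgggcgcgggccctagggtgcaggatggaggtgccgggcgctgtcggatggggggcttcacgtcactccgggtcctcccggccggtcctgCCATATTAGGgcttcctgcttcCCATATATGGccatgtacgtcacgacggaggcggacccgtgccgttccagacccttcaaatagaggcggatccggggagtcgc

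These 2 boxes began 105 and 83 bases before the start site. Letters matching the CArG box were searched on both strands in windows from 250 bases before to 50 bases after each RefSeq start site. They occurred in 454 of 35116 windows (1.29%), and 1.6% of all genes held them in at least 1 window. Windows were found for 6 of the 7 members, 11 in all with 1 to 3 per gene, and EGR3 had none. A CArG box was held by 3 of these 6 genes, namely EGR1, EGR2 and SRF. EGR2 had 1 box, 71 bases before the start of its main transcript, and SRF, a known target of its own product, had boxes 30 and 10 bases before its start. The boxes of the other 2 genes are set below that of EGR1, each in capitals with 8 flanking bases, to let their likeness be seen.
EGR1 at chr5:137801077-137801102, plus strand: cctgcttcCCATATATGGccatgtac
EGR2 at chr10:64576180-64576205, minus strand: tcctcagtCCATATATGGgcagcgac
SRF at chr6:43138969-43138994, plus strand: ggggctcaCCATATAAGGagcggcct
SRF at chr6:43138989-43139014, plus strand: cggcctcgCCATAAAAGGaaacattg
The downstream box of EGR1 and the box of EGR2 share all 10 letters. Of the 3 genes with a box, EGR1 and EGR2 met the call rule and SRF did not. NAB1, NAB2 and EGR4 had no match in these windows, which says only that the letters are not there.

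Sites of the EGR factors themselves, searched as GCGNGGGCG on both strands, were held by 11.2% of all genes (9.43% of all windows) and by 5 of the 6 members with a window, EGR1, EGR2, NAB1, NAB2 and SRF. They are shown for the corepressors NAB1 and NAB2, of which NAB2 is the known EGR target, with the matched letters in capitals.
NAB1 at chr2:191513626-191513650, plus strand: tcggccgcGCGTGGGCGggagccgg
NAB2 at chr12:57482827-57482851, plus strand: tgcgtcctGCGGGGGCGgaggcgcg
The NAB1 site lies 175 bases before the start of its main transcript and the NAB2 site 62 bases before that of NAB2. Other annotated transcripts of both genes begin further upstream, so these sites lie inside the gene spans given with the values. NAB1 held 4 such matches in the window of its main start, of which 2 overlap each other, and G and C made up 82% of that window. The core of the cAMP response element, TGACG on either strand, was held by 5 of the 6 members with a window against 28.4% of all genes (24.6% of all windows), and the full element TGACGTCA by 0 of them against 2.25% of all genes (1.85% of all windows). The ETS-type letters CCGGAA were held by 1 of the 6, SRF, against 20.1% of all genes (17.2% of all windows). Only these exact letters were searched, so other forms of ETS site in the windows are not covered. These matches describe letters and are not evidence of binding in ES2 cells.

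**Figure D2:**
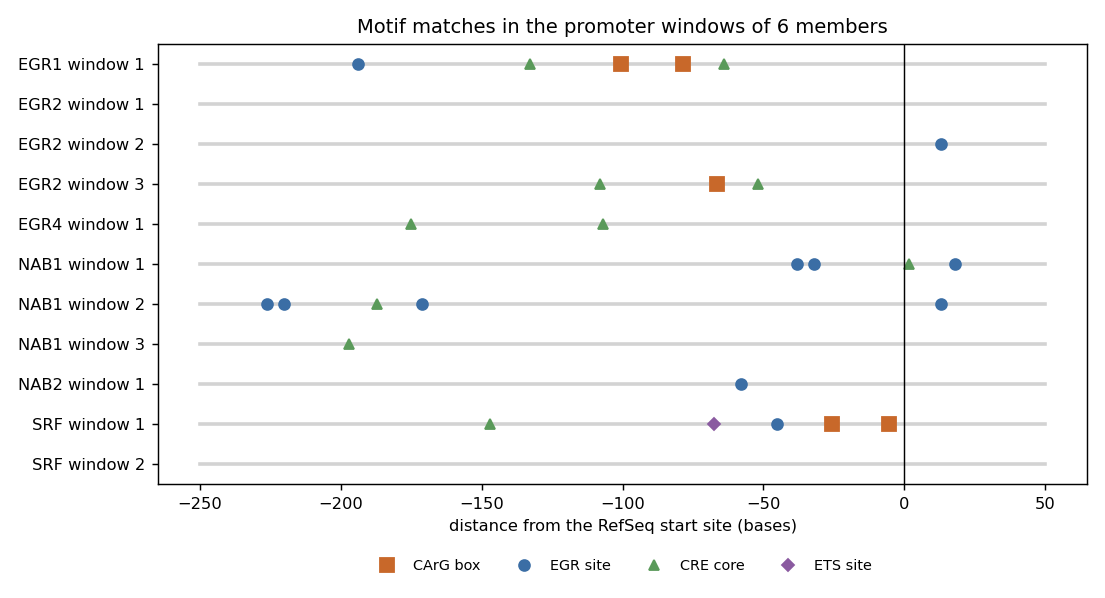
Positions of motif matches in the 11 RefSeq promoter windows of 6 members, plotted as distance in bases from the start site, with CArG boxes as squares, EGR sites as circles, cores of the cAMP response element as triangles and the ETS site as a diamond. CArG boxes fall in windows of EGR1, EGR2 and SRF, and NAB1 shows the most EGR sites.

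EGR2, a zinc finger factor best known for driving myelin genes in Schwann cells, was low and fell in the same direction. Its counts were 89 and 92 in vehicle and 25 and 31 in Liq, or 2.165 and 2.457 CPM against 0.703 and 0.618 CPM. Exact Poisson intervals (95%, counting error only) ran from 1.74 to 3.01 CPM over the vehicle samples and from 0.42 to 1.04 CPM over the Liq samples. These ranges did not overlap, which is a description only, because EGR2 was chosen with this contrast in view. The fitted log2 fold change was -1.81 (SE 0.24), a value that 0.229% of tested genes went below. EGR2 lies on chromosome 10 from 64571756 to 64578927 on the minus strand. Its main transcript has 2 exons, and 145 of its 2979 exonic bases (4.87%) also belong to an annotated long noncoding RNA on the same strand.

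The largest fold change of the group was that of EGR3, a factor known from lymphocytes and muscle spindles that is itself an EGR1-inducible gene. It had 57 and 59 counts in vehicle and 13 and 9 in Liq, which is 1.386 and 1.576 CPM against 0.366 and 0.179 CPM. Both Liq samples were clearly lower, but the 2 Liq samples differed from each other by more than the vehicle samples did on a relative scale. The log2 fold change was -2.50 (SE 0.34), and only 0.0443% of tested genes went lower. It moved to -3.02 without Liq replicate 1 and to -2.01 without Liq replicate 2, and whether EGR3 changed more than EGR1 or EGR2 was not tested. EGR3 lies on chromosome 8 from 22545172 to 22550993 on the minus strand, with 2 exons, and 164 of its 4514 exonic bases (3.63%) overlap a noncoding RNA on the opposite strand.

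EGR4, a neuronal member that lacks the NAB-binding region of the others, was not detectable. It had 1 count in vehicle replicate 2 and 0 counts in the other 3 samples. All 4 samples lay under the floor of 3 counts, and the exact 95% Poisson intervals of the samples with 0 counts reached 0.0735 to 0.104 CPM, so no fold change is given and the gene was not tested. EGR4 lies on chromosome 2 from 73518057 to 73520829 on the minus strand.

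NAB2, the EGR-inducible corepressor, showed a smaller but reproducible difference. Its counts were 2145 and 1899 in vehicle and 1441 and 1758 in Liq, or 52.2 and 50.7 CPM against 40.52 and 35.03 CPM. The groups did not overlap with TMM, library size alone, DESeq2 size factors or upper-quartile scaling, of which library size alone was added after the data were seen. The log2 fold change was -0.45 (SE 0.09), a change of -26.7% that stays under the 1.5-fold threshold, and 4.34% of tested genes went lower. NAB2 lies on chromosome 12 from 57482826 to 57489259 on the plus strand. The 69 exonic bases that it shares with STAT6 on the opposite strand make up 2.77% of its exonic length, and whether strand was used in counting is not given in the sources used here.

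NAB1, the constitutive corepressor, differed little. Vehicle values were 63.97 and 68.11 CPM and Liq values 52.67 and 61.09 CPM, from 1873 to 3066 counts per sample. The log2 fold change was -0.21 (SE 0.08) and did not meet either threshold, and it was -0.33 without Liq replicate 2 and -0.11 without Liq replicate 1. With library size alone as the scale the groups overlapped, at 61.9 and 66.6 CPM in vehicle against 54.2 and 62.7 CPM in Liq. NAB1 lies on chromosome 2 from 191511472 to 191557492 on the plus strand, the longest member with 10 exons over 46021 bases, and 589 of its 4508 exonic bases (13.1%) overlap a noncoding RNA on the opposite strand.

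SRF, the factor that binds CArG boxes, was also nearly level. Its values were 101.8 and 92.2 CPM in vehicle and 90.8 and 77.8 CPM in Liq, from 3230 to 4187 counts per sample, and the higher Liq sample lay just under the lower vehicle sample. The log2 fold change was -0.20 (SE 0.08), neither threshold was met, and it was -0.32 without Liq replicate 1 and -0.10 without Liq replicate 2. The groups overlapped with library size alone and with upper-quartile scaling. SRF lies on chromosome 6 from 43139007 to 43149244 on the plus strand, with 7 exons.

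**Figure D3:**
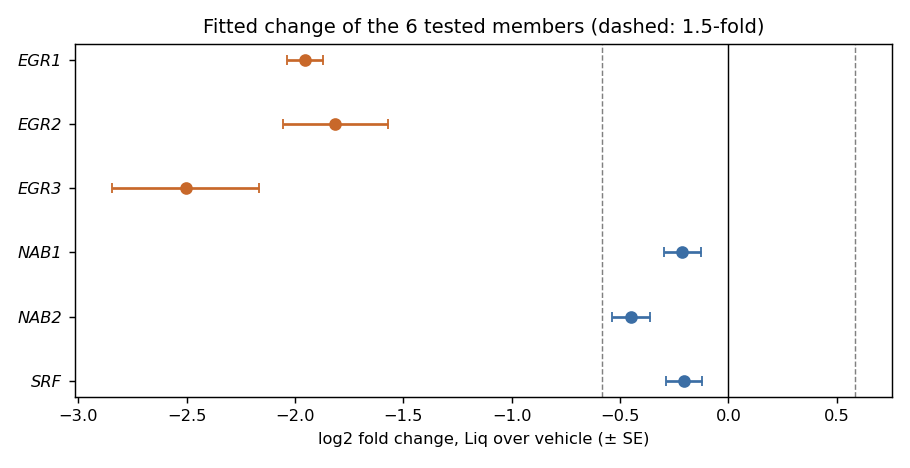
Fitted log2 fold change of Liq over vehicle with its SE (bars) for the 6 tested members, with dashed lines at 1.5-fold and members that met the call rule in orange. EGR1, EGR2 and EGR3 lie near -2 and NAB1, NAB2 and SRF between -0.45 and -0.20.

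Between genes, levels were compared as CPM per kb of exon of the main transcript. In vehicle, EGR1 stood highest at 40.5 ± 3.0 CPM per kb (SD, n = 2). SRF came next at 22.9 ± 1.6 and NAB2 at 20.7 ± 0.4, neighbors whose distance is close to their spread, followed by NAB1 at 14.6 ± 0.7. EGR2 and EGR3 were far below, at 0.776 ± 0.069 and 0.328 ± 0.030 CPM per kb. In Liq the order changed, with SRF at 19.9 ± 2.2, NAB2 at 15.2 ± 1.6, NAB1 at 12.6 ± 1.3 and EGR1 at 10.5 ± 0.7 CPM per kb. EGR1 thus went from the most abundant member in both vehicle samples to a level below both corepressors in both Liq samples. EGR2 and EGR3 stood at 0.222 ± 0.020 and 0.060 ± 0.029 CPM per kb in Liq.

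The signal chain above the EGR promoters was examined with gene lists from general knowledge. All the lists used here were fixed with earlier results of these data known, so their called shares and adjusted p-values are a description. Their median log2 fold changes are read beside 0.00619 for all tested genes. Among 19 genes of the ERK cascade, from EGFR to the RSK kinases, 0 met the call rule and the median was -0.06. At any fold, 3 had an adjusted p-value under 0.05, all lower. The most abundant were the adaptor SHC1, which went from 376 ± 10 to 312 ± 12 CPM (log2 fold change -0.27 with adjusted p = 0.003982 by edgeR), and the receptor EGFR, which went from 344 ± 19 to 341 ± 5 CPM (log2 fold change -0.01, adjusted p = 0.9022 by edgeR). Transcript levels do not measure the activity of these kinases.

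Of the 6 SRF cofactors, 5 were tested and 0 met the call rule. ELK3, the most abundant ETS-type cofactor, went from 205 ± 12 CPM to 174 ± 1 CPM (log2 fold change -0.24, adjusted p = 0.01469 by edgeR), and ELK4 from 76.1 ± 7.2 CPM to 80.6 ± 8.4 CPM (log2 fold change 0.09, adjusted p = 0.5037 by edgeR). At any fold, 2 passed the adjusted p-value, ELK3 and, named after its value was seen, ELK1 with a log2 fold change of -0.30 (adjusted p = 0.005566 by edgeR). The actin-sensing cofactors MKL1 and MKL2 were at 33.0 ± 0.5 and 33.7 ± 2.3 CPM in vehicle and 33.9 ± 2.2 and 36.0 ± 0.7 CPM in Liq.

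Cytoskeletal targets of SRF showed no common direction. Among 17 tested genes, 2 rose and 1 fell by the call rule (17.6% against 6.45% of all tested genes), and the median log2 fold change was -0.10. Calponin CNN1 rose from 3.31 ± 0.03 CPM to 6.20 ± 0.30 CPM (log2 fold change 0.91 with SE 0.14, adjusted p = 3.735e-05 by edgeR). Smooth muscle actin ACTA2 rose from 3.42 ± 0.46 CPM to 6.18 ± 0.19 CPM (log2 fold change 0.85 with SE 0.15, adjusted p = 0.0001108 by edgeR). CTGF, a matricellular growth factor that YAP and TEAD also drive, fell from 1960 ± 8 CPM to 843 ± 1 CPM (log2 fold change -1.22 with SE 0.06, adjusted p = 1.169e-14 by edgeR). CArG boxes were present in windows of 7 of the 15 genes of this list that matched the promoter table, and CNN1, ACTA2 and CTGF were among the 8 without a match. The lack of a match says only that the searched letters are not in those windows.

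A list of other immediate-early genes also held ERK feedback inhibitors such as DUSP6 and SPRY4. Of its 31 tested genes, 9 fell by the call rule and 0 rose, while 22 did not meet it. The share called lower was 29%, against 2.16% of all tested genes. At any fold, 16 passed the adjusted p-value as lower and 1 as higher, with a median log2 fold change of -0.29. The largest changes were those of the orphan nuclear receptor NR4A3 (log2 fold change -1.10 with SE 0.35, adjusted p = 0.02207 by edgeR), the AP-1 subunit FOSB (-0.93, SE 0.14, adjusted p = 1.626e-05), the ERK-induced survival gene IER3 (-0.91, SE 0.07, adjusted p = 4.416e-10) and the ERK phosphatase DUSP6 (-0.90, SE 0.07, adjusted p = 1.232e-10). DUSP6 stood at 391 and 404 CPM in vehicle and at 212 and 216 CPM in Liq. NR4A3 had only 27 and 34 counts in vehicle and 13 and 18 in Liq, and its call was lost without any 1 of the 4 samples and with DESeq2's Wald test. The other 5 had log2 fold changes from -0.86 to -0.60, the smallest being that of IER2, whose call was lost in 5 of 12 alternatives, namely without vehicle replicate 1, without Liq replicate 2, and with library size alone, upper-quartile scaling and loess offsets. None of these 9 genes reached the fold change of EGR1, and only NR4A3 changed by at least 2-fold.

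**Figure D4:**
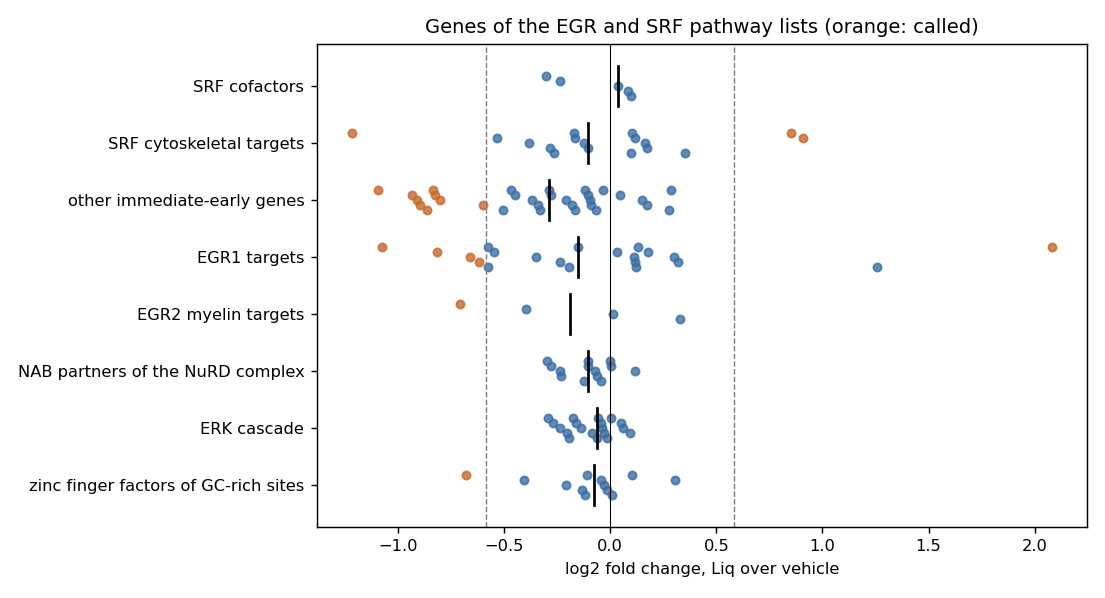
Log2 fold change of Liq over vehicle for every tested gene of 8 lists around the EGR and SRF pathway, with black lines at list medians, dashed lines at 1.5-fold and called genes in orange. Called genes of the immediate-early list are all on the lower side, while the ERK cascade, the SRF cofactors and the NuRD partners hold no called gene.

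Of 25 genes widely described as EGR1 targets, 21 were tested, 4 fell and 1 rose by the call rule (23.8% against 6.45% of all tested genes). The median log2 fold change was -0.15. CDKN1A, which encodes the cyclin-dependent kinase inhibitor p21, fell from 18.5 ± 0.9 CPM to 8.75 ± 0.17 CPM (log2 fold change -1.08 with SE 0.11, adjusted p = 1.999e-08 by edgeR). The adhesion gene ICAM1 fell from 141 ± 4 CPM to 80.2 ± 3.4 CPM (log2 fold change -0.82 with SE 0.08, adjusted p = 6.013e-09 by edgeR) and THBS1, which encodes thrombospondin, from 140 ± 4 CPM to 91.0 ± 3.5 CPM (log2 fold change -0.62 with SE 0.07, adjusted p = 6.819e-07 by edgeR). PDGFB, a growth factor chain, fell from 2.26 ± 0.24 CPM to 1.41 ± 0.17 CPM (log2 fold change -0.66 with SE 0.21, adjusted p = 0.02302 by edgeR). Prostaglandin E synthase PTGES went the other way on 2 and 3 counts in vehicle and 10 and 14 in Liq (adjusted p = 0.02333 by edgeR). The call of PTGES was lost without any 1 of the 4 samples, that of PDGFB without either vehicle replicate or without Liq replicate 1, and that of THBS1 without Liq replicate 1. DESeq2's Wald test also lost PTGES and PDGFB, loess offsets PTGES and THBS1, and library size alone PDGFB and THBS1.

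Of the 6 myelin genes that EGR2 drives in Schwann cells, 4 were tested. MBP went from 67.2 ± 2.0 CPM to 51.1 ± 0.1 CPM (log2 fold change -0.40, adjusted p = 0.0006099 by edgeR), under 1.5-fold, and PMP22 from 40.8 ± 2.7 CPM to 41.1 ± 0.8 CPM (log2 fold change 0.01, adjusted p = 0.9412 by edgeR). GJB1 and MAG had 0 counts in every sample.

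The NuRD subunits that NAB proteins recruit held no called gene among 13 tested, with a median log2 fold change of -0.11, and 4 passed the adjusted p-value at any fold, all lower. CHD4, the ATPase that NAB2 binds, went from 455 ± 3 CPM to 388 ± 1 CPM (log2 fold change -0.23, adjusted p = 0.008407 by edgeR), and RBBP7, a histone-binding subunit, from 446 ± 11 CPM to 409 ± 5 CPM (log2 fold change -0.12, adjusted p = 0.1684 by edgeR). Among 12 other zinc finger factors of GC-rich sites, 1 was called. WT1, the Wilms tumor factor whose zinc fingers resemble those of the EGR proteins, fell from 4.46 ± 0.53 CPM to 2.77 ± 0.02 CPM (log2 fold change -0.68 with SE 0.16, adjusted p = 0.002849 by edgeR), a call that was lost without vehicle replicate 2. SP3 and SP1, the most abundant of them, stood at log2 fold changes of -0.03 (adjusted p = 0.8163 by edgeR) and -0.12 (adjusted p = 0.2462 by edgeR).

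The genes whose profile over the 4 samples was most like that of EGR1 were found among 13110 tested genes that had 10 counts or more in each sample, by the root-mean-square difference of log2 CPM after each gene was centered on its own mean. In order, they were BTNL8, IGFBP1, LAMA1, MMP1 and CLDN14, with differences of 0.0716, 0.102, 0.103, 0.112 and 0.118. BTNL8 was low, at 0.997 and 1.07 CPM in vehicle and 0.309 and 0.279 CPM in Liq. The SE of its log2 fold change was 0.34, so its place in the order is uncertain. MMP1, an interstitial collagenase, was the abundant one, at 20720 and 20920 CPM in vehicle and 5976 and 6106 CPM in Liq. IGFBP1, an insulin-like growth factor binding protein, went from 5.59 and 5.13 CPM to 1.38 and 1.32 CPM. With 4 samples in 2 groups, this likeness amounts to a similar fold change and is given as a description.

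**Figure D5:**
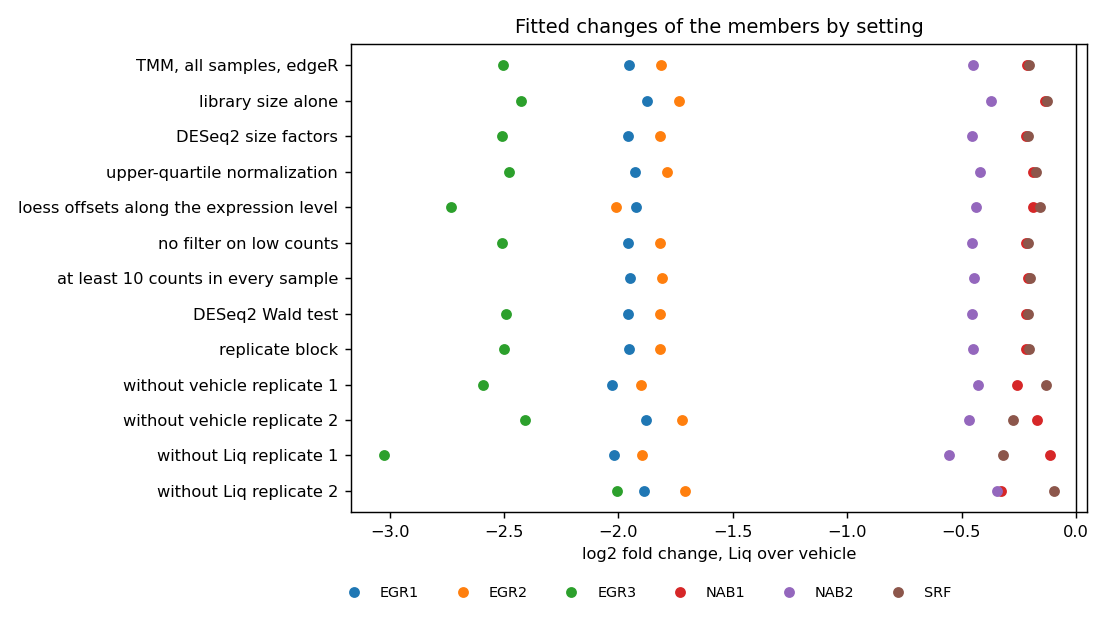
Log2 fold change of Liq over vehicle for the 6 tested members under the reported fit and 12 alternatives (rows), with 1 color per gene. EGR1 stays between -2.03 and -1.88 in all of them, and EGR3 spreads widest, from -3.02 to -2.01.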

How the data were processed

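RNA-seq of ES2 cells (2 vehicle and 2 Liq samples) was analysed from raw read counts per gene. The authors deposited these counts after aligning 100 bp single-end reads to hg19 with TopHat2 2.0.8b and counting with HTSeq, which does not assign multi-mapping reads (35.63% to 36.23% of its tally per sample), so close gene copies are undercounted. Groups and replicate numbers came from the sample titles.

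Counts were fitted in R 4.3.3 with edgeR 4.0.16 (filterByExpr with a minimum count of 10, TMM, glmQLFit and glmQLFTest, group only), with Benjamini-Hochberg adjustment over all 13546 tested genes. SE is the log2 fold change divided by the square root of F. The smallest p-value that an exact permutation of 2 against 2 samples allows is 0.3333, so the edgeR test rests on spread shared across genes. Replicates differed by more than sampling noise (chi-square per degree of freedom 6.56 and 11.6). Alternatives were other scalings (library size alone was added after the data were seen) and filters, DESeq2 1.42.0, a replicate block, left-out samples and other call rules.

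The members and lists were chosen with earlier results of these data known. Named from each list were the called genes, at most 4 per direction by fold change, and the 2 most abundant where fewer than 2 were called. Gene positions and exon lengths are those of GENCODE v44 lifted to GRCh37. The fits were tested on simulated data. Values of some listed genes are not reported here, though list counts include them.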

Additional observations from a re-analysis of the deposited data

How the results depend on the processing

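EGR1, EGR2 and EGR3 met the call rule in all 12 alternative fits except that EGR3 was not tested when at least 10 counts were required in every sample. Log2 fold changes ranged from -2.03 to -1.88 for EGR1, from -0.33 to -0.11 for NAB1, from -0.56 to -0.35 for NAB2 and from -0.32 to -0.10 for SRF. That of EGR2 moved to -2.01 with loess offsets along the expression level, and that of EGR3 ran from -3.02 to -2.01 over the fits that left out 1 sample.

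DESeq2's Wald test gave 567 called genes (341 upward) and 3 called EGR1 targets, and library size alone also gave 3 of the latter. Loess offsets gave 354 upward and 394 downward calls against 581 and 293, so the share of upward calls fell from 66.5% to 47.3%. At any fold, 3245 genes passed (1712 upward and 1533 downward). Among them were 17 genes of the immediate-early list, 13 EGR1 targets and 10 cytoskeletal targets. There were also 4 NuRD partners, 3 genes of the ERK cascade, 2 SRF cofactors and 2 myelin genes. At 2-fold, 328 passed (209 and 119), with 1 gene of the immediate-early list, 2 EGR1 targets and 1 cytoskeletal target. That rule left 0 myelin genes and 0 GC-site zinc finger genes. Leaving out 1 sample gave 0 to 1 called gene among the last. The cause of these shifts was not tested, apart from the thresholds themselves.

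The titles number the replicates but do not say whether same-numbered samples were paired. The correlation of same-numbered deviations over the tested genes was 0.129, which does not settle this. Blocking on these numbers took the SE from 0.0833 to 0.0498 for SRF, 0.0846 to 0.0559 for NAB1 and 0.088 to 0.0642 for NAB2. It went from 0.0841 to 0.064 for EGR1, 0.243 to 0.244 for EGR2 and 0.339 to 0.349 for EGR3. With a replicate block, 898 genes were called in place of 874, and no count of the members or lists moved by over 1.5 times. EGR3 in Liq rests on only 13 and 9 counts. EGR4 had 1 count in vehicle replicate 2 and 0 elsewhere, and whether depth or lack of expression left it undetected was not tested.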
